A study of Mus musculus with 28 samples.

Results

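The Fc receptor genes of microglia and *Fcrls* were followed across the 6 groups of the study. The 7 genes were taken by name from the deposited count table, which lists 48587 genes. They are *Fcer1g*, *Fcgr1*, *Fcgr3*, *Fcgr4*, *Fcgr2b*, *Fcgrt* and *Fcrls*, and all 7 were among the 15298 genes with enough reads to be tested. The table holds RNA-seq read counts of FACS-isolated CD11b+CD45low hippocampal microglia, negative for the lineage markers of a dump gate, from 28 mice. Library totals ranged from 14441610 to 29977395 reads.

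All mice were on a C57BL/6J background, and the labels give an age of 16 weeks. The 5xFAD mice, a model of Alzheimer's disease, were heterozygous males that carry mutant human APP and PS1 under a Thy-1 promoter, which is active in neurons. The counts of mouse genes in microglia therefore do not check the genotype. Their controls were WT littermates. Mice were kept under specific pathogen-free (SPF) conditions, or germ-free (GF), or under SPF conditions with antibiotics (ABX), a mixture of vancomycin, cefoxitin, gentamicin and metronidazole given in the drinking water for 8 weeks. The WT mice numbered 5 under SPF, 4 under GF and 5 under ABX conditions, and the 5xFAD mice 3, 5 and 6. The GF mice came from a facility in Bern and the others were housed in Freiburg, and an effect of germ-free life cannot be told apart from one of the facility. Mice are named by their titles, in which FAD stands for 5xFAD. Mouse FAD_GF_201 is a 5xFAD mouse by its title and genotype label, although its description reads WT. It was counted here among the GF 5xFAD animals.

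Fc receptors bind the constant part of antibodies and let phagocytes take up what the antibodies have marked. The activating receptors *Fcgr1*, *Fcgr3* and *Fcgr4* have no signalling motif of their own and depend on the common gamma chain, encoded by *Fcer1g*, whose immunoreceptor tyrosine-based activation motif (ITAM) recruits the kinase Syk. *Fcgr2b*, the inhibitory receptor, carries an inhibitory motif (ITIM) in its own tail and recruits phosphatases such as the one encoded by *Inpp5d*. *Fcgrt* encodes the neonatal Fc receptor FcRn, which pairs with beta-2-microglobulin and returns IgG from endosomes, and *Fcrls* is a receptor-like relative used as a marker of microglia.

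The following stretches of coding sequence show the difference between the activating chain and the inhibitory receptor. Both are read from GENCODE M21 transcripts on GRCm38, 5′ to 3′, and the capitals mark the codons that define each motif: the tyrosine codons and the leucine or isoleucine codons spaced around them. The *Fcer1g* stretch covers codons 62 to 82 of 86 and lies at chr1:171229880-171230081 on the minus strand, with an intron within it. The *Fcgr2b* stretch covers codons 314 to 325 of 340 and lies within 1 exon at chr1:170961062-170961097 on the minus strand. The ITAM pattern occurred once in *Fcer1g* and in none of the other 6 coding sequences. The shorter ITIM pattern occurred once in *Fcgr2b* and also in *Fcer1g*, *Fcgr1*, *Fcgr4* and *Fcgrt*, at places that were not examined.
*Fcer1g* ITAM: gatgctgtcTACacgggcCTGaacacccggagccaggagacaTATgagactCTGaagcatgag
*Fcgr2b* ITIM: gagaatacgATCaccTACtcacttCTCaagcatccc

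*Fcer1g*, *Fcgr2b*, *Fcgr3* and *Fcgr4* lie close together on chromosome 1. By GENCODE M21 they span 171229572 to 171234365, 170958617 to 170976547, 171051174 to 171064935 and 171018920 to 171029761. *Fcgr1* lies at chr3:96282909-96293969, *Fcrls* at chr3:87250758-87263738 and *Fcgrt* at chr7:45092990-45103851, and all 7 are protein-coding. The reads were single and 50 bases long, and *Fcgr2b* and *Fcgr3* share stretches longer than that. Of the distinct 50-base words in their transcripts, 6.95% in *Fcgr2b* and 9.58% in *Fcgr3* also occurred in another gene, against 0% in the other 5 members. The longest shared coding run was 129 bases, within a block of 463 bases that was 96.8% identical. It is printed because reads inside it cannot be given to one gene or the other, and how such reads were counted is not given in the sources used here.
*Fcgr2b* and *Fcgr3*, shared run: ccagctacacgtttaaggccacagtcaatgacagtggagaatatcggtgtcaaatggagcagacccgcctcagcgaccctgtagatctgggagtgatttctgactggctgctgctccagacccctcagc
*Fcgr2b* also overlaps the antisense gene *Gm38204* over 155 of its 5790 exon bases, so that its counts are uncertain by these reads too.

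Levels between genes were compared as CPM, reads scaled to a common library size, per kilobase of exon length. *Fcrls*, *Fcer1g* and *Fcgr3* were abundant, with medians over the 28 mice of 1185, 1177 and 948 CPM per kb, which placed them 24th, 25th and 31st among the tested genes. *Fcgr1* followed at 122 CPM per kb, *Fcgrt* at 77.3 and *Fcgr2b* at 58.6. *Fcgr4* was the lowest at 11.9 CPM per kb, with 131 to 874 reads in a library. The sort used a blocking antibody against CD16/CD32, the proteins of *Fcgr3* and *Fcgr2b*, and the dump gate held antibodies against Ly6G and Ly6C, which neutrophils and monocytes carry.

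**Figure D1:**
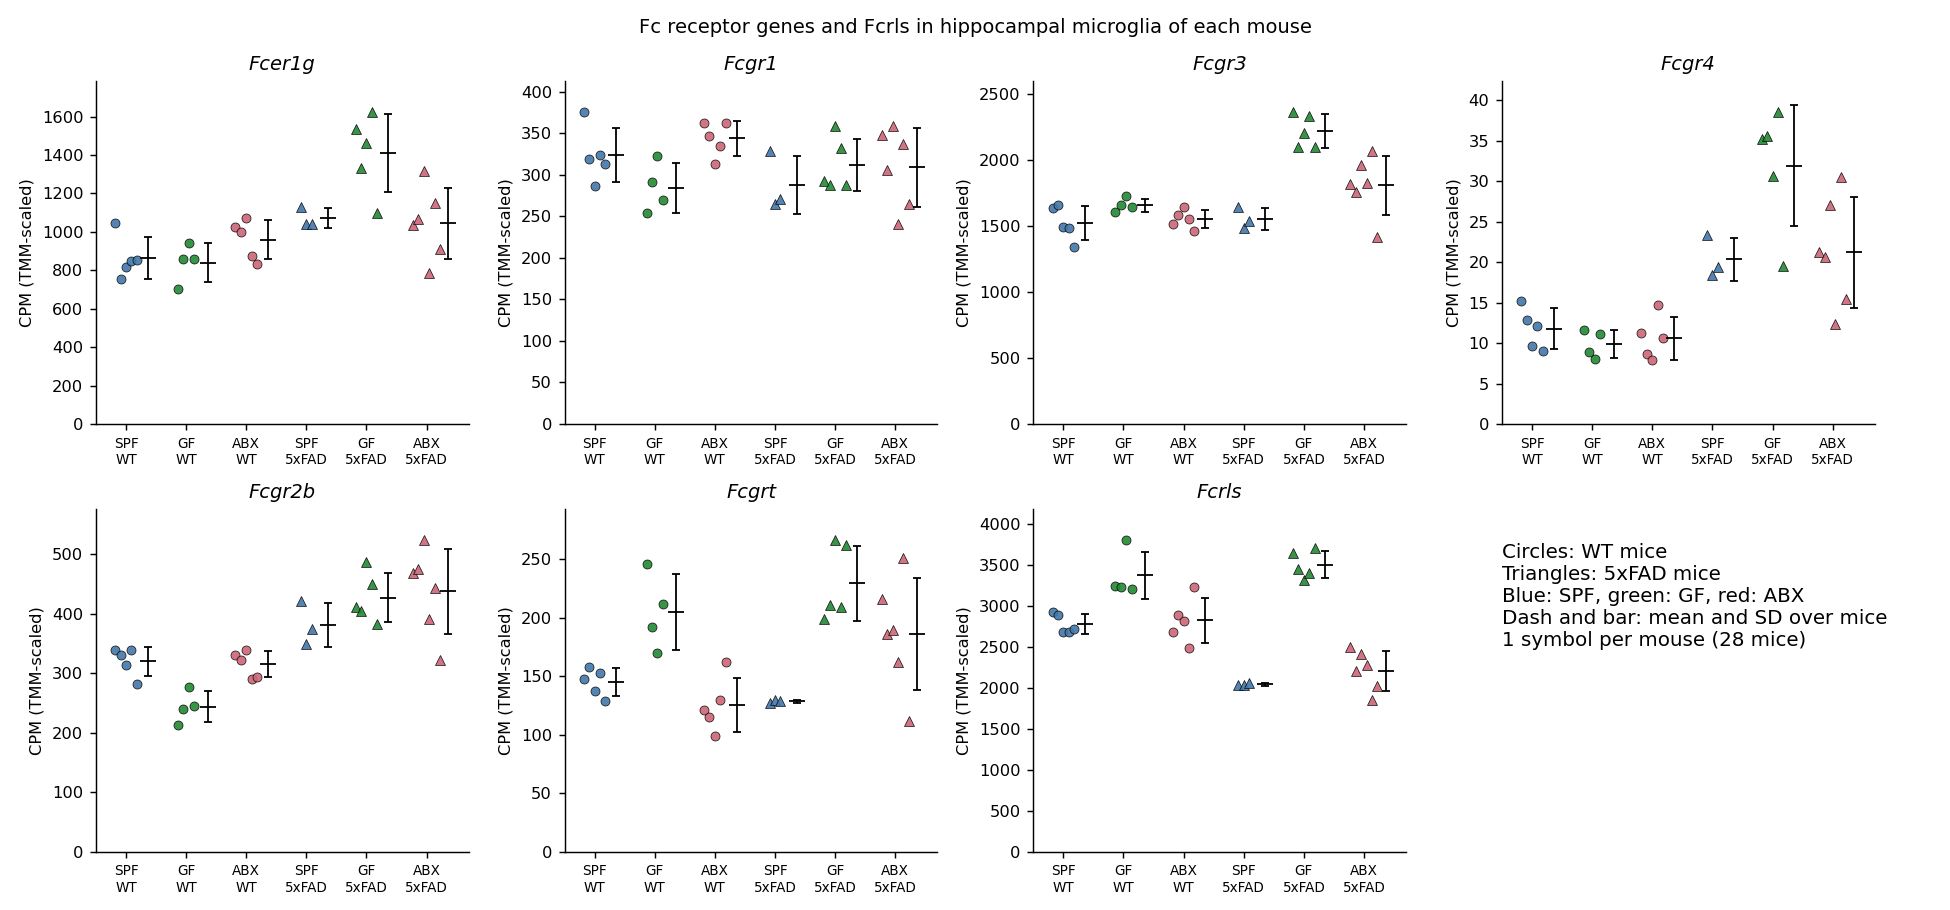
CPM (TMM-scaled, linear axis from 0) of the 7 genes in each of the 28 mice by group, with circles for WT and triangles for 5xFAD mice and the mean and SD beside them. The 5 GF 5xFAD mice had 2095 to 2361 CPM of Fcgr3, above the mice of every other group, while the Fcgr1 ranges of neighbouring groups overlapped throughout.

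Markers of microglia were abundant in every library. The 10 microglia markers, among them *Cx3cr1*, *P2ry12* and *Tmem119*, summed to 48220 to 69970 CPM of the library total in each mouse, with lower sums in 5xFAD than in WT mice and no overlap under each condition (52440 to 56820 against 62710 to 67990 CPM in SPF, 48220 to 58520 against 62020 to 65230 CPM in GF and 53110 to 60580 against 63390 to 69970 CPM in ABX mice). Mast cell, T cell and NK cell markers reached at most 0.0634, 2.96 and 3.66 CPM. The 8 neutrophil markers summed to 61.1 to 263 CPM in the SPF 5xFAD mice and 144 CPM in mouse FAD_ABX_1151, against at most 0.294 CPM in the WT groups. The 9 markers of border-associated macrophages summed to 36.5 to 269 CPM in ABX 5xFAD mice and 3.80 to 5.90 CPM in ABX WT mice, 16.6 to 30.7 CPM in SPF 5xFAD and 3.48 to 8.15 CPM in SPF WT mice, and 10.6 to 83.6 CPM in GF 5xFAD and 11.0 to 44.97 CPM in GF WT mice. The 5 monocyte markers summed to 16.0 to 38.9 CPM in SPF 5xFAD against 6.13 to 8.42 CPM in SPF WT mice, 14.4 to 51.9 against 2.09 to 9.05 CPM in ABX mice and 5.98 to 24.9 against 3.40 to 16.6 CPM in GF mice. Astrocyte markers summed to 155 to 189 CPM in GF 5xFAD against 228 to 298 CPM in GF WT mice and endothelial markers to 9.42 to 21.4 against 28.6 to 35.5 CPM, both without overlap. Endothelial markers were also lower without overlap in SPF 5xFAD mice, at 23.9 to 29.7 against 30.9 to 44.0 CPM. The astrocyte sum was largely *Slc1a3*, at 151 to 324 CPM over all mice, while *Gfap*, *Aqp4*, *Aldoc* and *Gja1* each reached at most 6.79 CPM. Of the endothelial markers *Pecam1* was the largest, at 5.36 to 52.0 CPM, while *Cldn5* reached at most 0.0808 CPM. The part of the other cell types in the genotype results was not tested. Among the B cell markers *Ighm* reached 772 CPM, while *Igkc* reached at most 0.0334 CPM. Descriptions of the libraries follow 3 numbering styles: 1 for SPF WT and ABX WT mice, 1 for SPF 5xFAD mice and FAD_ABX_1151, and 1 for all GF and the other ABX 5xFAD mice. Their meaning is not given in the sources used here. The SPF and ABX genotype comparisons lie across styles, so that style and genotype cannot be told apart there, whereas the GF genotype comparison lies within 1 style. The differences of the 5xFAD effect between conditions carry the same limit.

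*Fcer1g*, the signalling chain, was higher in microglia from GF 5xFAD mice than from GF WT mice. It measured 1535, 1335, 1463, 1623 and 1098 CPM in the GF 5xFAD mice and 700, 857, 943 and 859 CPM in the GF WT mice. All 5 GF 5xFAD mice lay above all 4 GF WT mice, with mouse FAD_GF_201 the lowest of the 5. The log2 fold change was 0.75 ± 0.12 (SE, edgeR quasi-likelihood test, adjusted p = 6.76e-05).

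Under the other conditions the chain did not pass the test between genotypes in edgeR. In SPF mice it measured 1131, 1039 and 1041 CPM in 5xFAD and 1048, 752, 817, 848 and 853 CPM in WT mice, a log2 fold change of 0.31 ± 0.13 (SE) that did not pass in edgeR (adjusted p = 0.250) and did in voomWithQualityWeights (adjusted p = 0.0127). One WT mouse, WT_SPF_912, lay within the 5xFAD range. ABX 5xFAD mice ranged from 788 over a median of 1051 to 1315 CPM, and ABX WT mice from 831 to 1073 CPM, so that the groups overlapped (log2 fold change 0.12 ± 0.11 SE, edgeR adjusted p = 0.527).

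*Fcgr3*, the low-affinity activating receptor and the most abundant one here, followed the chain in part. It measured 2361, 2095, 2206, 2336 and 2099 CPM in GF 5xFAD mice and 1605, 1659, 1724 and 1644 CPM in GF WT mice. The groups did not overlap, and the log2 fold change was 0.42 ± 0.08 (SE, edgeR adjusted p = 0.000311). In ABX mice it was 0.22 ± 0.07 (SE, edgeR adjusted p = 0.0360), with ABX 5xFAD mice from 1417 over a median of 1821 to 2065 CPM and ABX WT mice from 1464 to 1641 CPM. There 5 of the 6 ABX 5xFAD mice lay above every ABX WT mouse and FAD_ABX_1151 below them all. This call was lost in 11 of 36 alternatives, 8 of which left out 1 mouse: WT_ABX_909, WT_ABX_910, WT_ABX_923, WT_ABX_932, FAD_ABX_1452, FAD_ABX_1455, FAD_ABX_1460 or FAD_ABX_1482, with adjusted p from 0.0512 to 0.0944. In SPF mice the value was 0.03 ± 0.09 (SE, edgeR adjusted p = 0.950), with 5xFAD mice at 1483 to 1647 CPM inside the WT range of 1337 to 1656 CPM.

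*Fcgr4*, an activating receptor that binds IgG immune complexes, showed the largest fold change of the 7 genes in each of the 3 genotype comparisons. It measured 35.3, 35.6, 30.7, 38.5 and 19.5 CPM in GF 5xFAD mice and 11.6, 8.94, 8.05 and 11.1 CPM in GF WT mice. The groups did not overlap, the fitted value was 3.21-fold, and its log2 was 1.68 ± 0.24 (SE, edgeR adjusted p = 6.99e-06). ABX 5xFAD mice ranged from 12.4 over a median of 20.9 to 30.6 CPM and ABX WT mice from 7.85 to 14.7 CPM. Of the 6 mice, 5 lay above every ABX WT mouse, and the log2 fold change was 1.00 ± 0.21 (SE, edgeR adjusted p = 0.00141).

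In SPF mice the 5xFAD animals had 23.3, 18.4 and 19.4 CPM of *Fcgr4* and the WT animals 15.3, 12.8, 9.61, 12.2 and 8.98 CPM. The groups did not overlap, but the log2 fold change of 0.79 ± 0.25 (SE) did not pass in edgeR (adjusted p = 0.0639). It passed in 11 of 36 alternatives, among them DESeq2 (adjusted p = 0.0305) and voomWithQualityWeights (adjusted p = 0.00256). Neutrophils are known to express *Fcgr4*, and the mouse with the most neutrophil marker RNA, FAD_SPF_1144, had the most *Fcgr4* of its group. It also had the most *Fcer1g*, *Fcgr1*, *Fcgr2b* and *Fcgr3* of that group. FAD_ABX_1151, with 144 CPM of the neutrophil markers, had 15.4 CPM of *Fcgr4*, where ABX 5xFAD mice ranged from 12.4 to 30.6 CPM. The part of neutrophils in the SPF value was not tested, and in a bulk library fewer cells of a type and less RNA per cell cannot be told apart. The dump gate held antibodies against Ly6G and Ly6C, and the neutrophil markers summed to 61.1 to 263 CPM in the sorted SPF 5xFAD libraries. GF 5xFAD mice had at most 0.0495 CPM of the 8 neutrophil markers. Monocyte markers were higher in SPF and ABX 5xFAD mice than in the WT mice of the same condition, without overlap, and their part in the *Fcgr4* values was not tested either.

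*Fcgr1*, the high-affinity receptor, did not pass the test in any of the 12 comparisons in edgeR. Its group means lay between 284 ± 29.99 (SD, n = 4) CPM in GF WT mice and 344 ± 20.8 (SD, n = 5) CPM in ABX WT mice. Each pair of neighbours in the order of the 6 means overlapped. Its log2 fold changes between 5xFAD and WT mice were -0.17 ± 0.12 (SE) for SPF, 0.13 ± 0.11 for GF and -0.15 ± 0.10 for ABX housing, with edgeR adjusted p of 0.616, 0.458 and 0.325. For ABX against GF WT mice it passed in 2 of 36 alternatives, voomWithQualityWeights (adjusted p = 0.0404) and gene length offsets (adjusted p = 0.0475).

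*Fcgr2b*, the inhibitory receptor, was higher in 5xFAD than in WT mice under GF and ABX conditions. It measured 411, 404, 487, 451 and 382 CPM in GF 5xFAD mice and 213, 240, 278 and 246 CPM in GF WT mice. No mouse of one group reached the other, and the log2 fold change was 0.81 ± 0.11 (SE, edgeR adjusted p = 2.75e-06). ABX 5xFAD mice ranged from 323 over a median of 455 to 524 CPM, and ABX WT mice from 290 to 339 CPM. All but FAD_ABX_1151 lay above every ABX WT mouse, and the log2 fold change was 0.47 ± 0.10 (SE, edgeR adjusted p = 0.00100).

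In SPF mice *Fcgr2b* measured 421, 349 and 374 CPM in 5xFAD and 340, 330, 313, 338 and 281 CPM in WT mice. The groups did not overlap, although the log2 fold change of 0.25 ± 0.12 (SE) did not pass in edgeR (adjusted p = 0.302). In the order of the 6 means GF WT mice stood lowest at 244 ± 26.7 (SD, n = 4) CPM, without overlap to ABX WT mice at 315 ± 22.2 (SD, n = 5) CPM. The 3 5xFAD groups held the top of the order and overlapped among themselves.

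The ratio of *Fcgr1*, an activating receptor, to the inhibitory *Fcgr2b* within a library parted the genotypes. The log2 ratio of reads per kilobase of *Fcgr1* over *Fcgr2b* was 1.04 to 1.31 in SPF WT, 1.29 to 1.44 in GF WT and 1.05 to 1.46 in ABX WT mice. In the 5xFAD mice it was 0.693 to 0.802 in SPF, 0.672 to 0.754 in GF and 0.460 to 0.878 in ABX mice. No 5xFAD mouse overlapped a WT mouse. The ratio of *Fcgr4* to *Fcgr2b* went the other way, with mean log2 ratios of -2.59 in WT and -2.03 in 5xFAD mice under SPF, -2.42 and -1.57 under GF, and -2.72 and -2.21 under ABX conditions. Its ranges overlapped in GF and ABX mice and did not in SPF mice. For the sum of the 3 activating receptors over *Fcgr2b*, which *Fcgr3* dominated, GF WT mice stood apart with log2 ratios of 4.55 to 4.81, while all other mice lay between 3.803 and 4.401. Within each condition this ratio was lower in 5xFAD mice without overlap, at 3.91 to 4.01 against 4.08 to 4.25 in SPF, 4.09 to 4.401 against 4.55 to 4.81 in GF and 3.80 to 4.135 against 4.16 to 4.37 in ABX mice. *Fcgr3* over *Fcgr2b* was lower in SPF and GF 5xFAD mice without overlap, and overlapped in ABX mice. These ratios are descriptions, without a test, and depend on the exon lengths used.

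**Figure D2:**
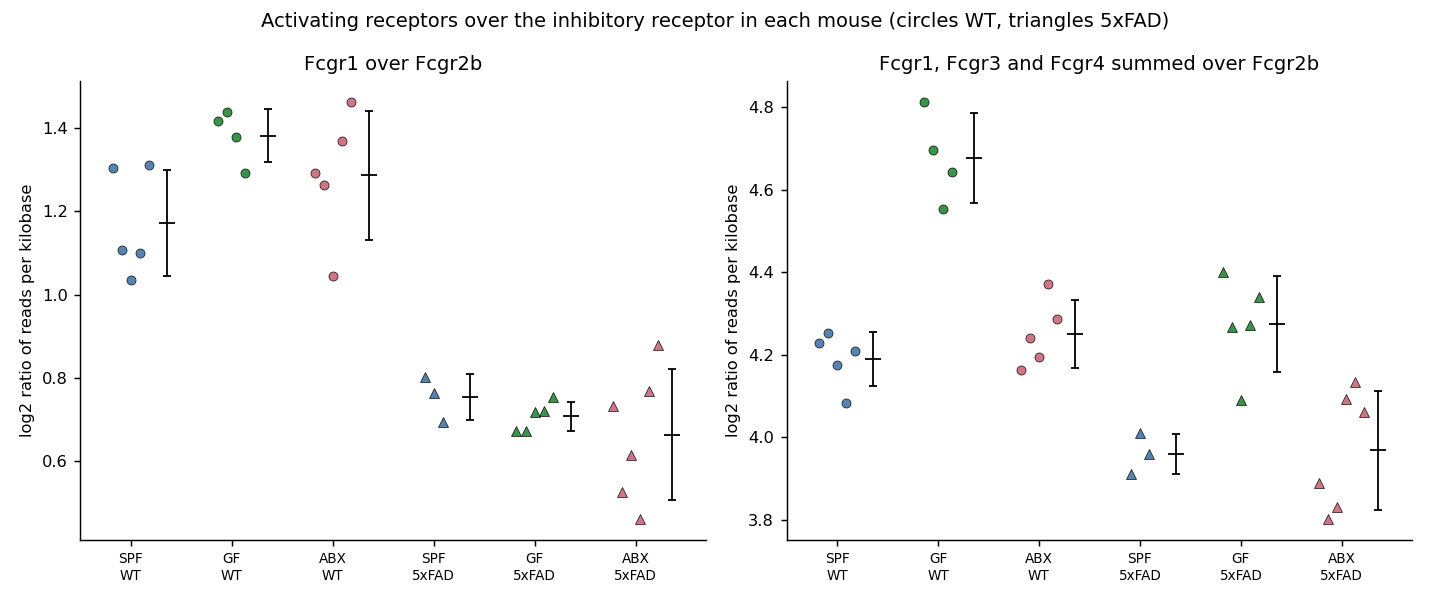
Log2 ratio of reads per kilobase of Fcgr1 over Fcgr2b (left) and of Fcgr1, Fcgr3 and Fcgr4 summed over Fcgr2b (right), 1 symbol per mouse with the group mean and SD. On the left all 5xFAD mice lie at or below 0.878 and all WT mice at or above 1.04, and on the right the GF WT mice lie highest and the 5xFAD mice lie below the WT mice of each condition.

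*Fcgrt*, which encodes FcRn, was higher in ABX 5xFAD than in ABX WT mice. It ranged from 112 over a median of 188 to 252 CPM in ABX 5xFAD mice and measured 122, 116, 98.9, 130 and 162 CPM in ABX WT mice. All but FAD_ABX_1151 lay above every ABX WT mouse, and the log2 fold change was 0.57 ± 0.14 (SE, edgeR adjusted p = 0.00696). The log2 fold change was -0.17 ± 0.17 (SE) in SPF and 0.16 ± 0.16 (SE) in GF mice, and neither passed (edgeR adjusted p = 0.782 and 0.549). *Fcgrt* is also a gene of macrophages, and the markers of border-associated macrophages were highest in the ABX 5xFAD group. These cells carry more CD45 than microglia, and the sort gated on CD45low cells. Their markers summed to 36.5 to 269 CPM in the sorted ABX 5xFAD libraries. The part of these cells in the difference was not tested.

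*Fcrls* fell in 5xFAD mice under SPF and ABX conditions. It measured 2027, 2029 and 2058 CPM in SPF 5xFAD mice and 2920, 2884, 2673, 2674 and 2716 CPM in SPF WT mice. The groups did not overlap, and the log2 fold change was -0.44 ± 0.09 (SE, edgeR adjusted p = 0.000885). ABX 5xFAD mice ranged from 1846 over a median of 2239 to 2496 CPM and ABX WT mice from 2487 to 3228 CPM, a log2 fold change of -0.35 ± 0.07 (SE, edgeR adjusted p = 0.000603) with 5 of 6 mice below every ABX WT mouse.

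In GF mice *Fcrls* stayed high in both genotypes. The 5xFAD mice had 3644, 3451, 3308, 3397 and 3696 CPM and the WT mice 3237, 3230, 3800 and 3202 CPM. The ranges overlapped, and the log2 fold change was 0.06 ± 0.08 (SE, edgeR adjusted p = 0.698). In the order of the 6 means the SPF and ABX 5xFAD groups stood lowest and overlapped, SPF WT mice followed without overlap, and the GF groups stood highest. The sum of the microglia markers was also lower in SPF and ABX 5xFAD mice than in their WT controls, as it was in GF 5xFAD mice, and its part in the fall of *Fcrls* was not tested.

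Counted over the 7 genes, 1 passed in SPF mice, *Fcrls*, and was lower in 5xFAD mice, where 4.57% of all tested genes passed and 0.837% were lower. In GF mice 4 passed and all were higher, *Fcer1g*, *Fcgr2b*, *Fcgr3* and *Fcgr4*, where 15.6% of all genes passed and 9.43% were higher. In ABX mice 5 passed, 4 of them higher, *Fcgr2b*, *Fcgr3*, *Fcgr4* and *Fcgrt*, and *Fcrls* lower, where 14.4% of all genes passed, 9.45% higher and 4.98% lower. The members were chosen by name, and no test was made of the list.

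**Figure D3:**
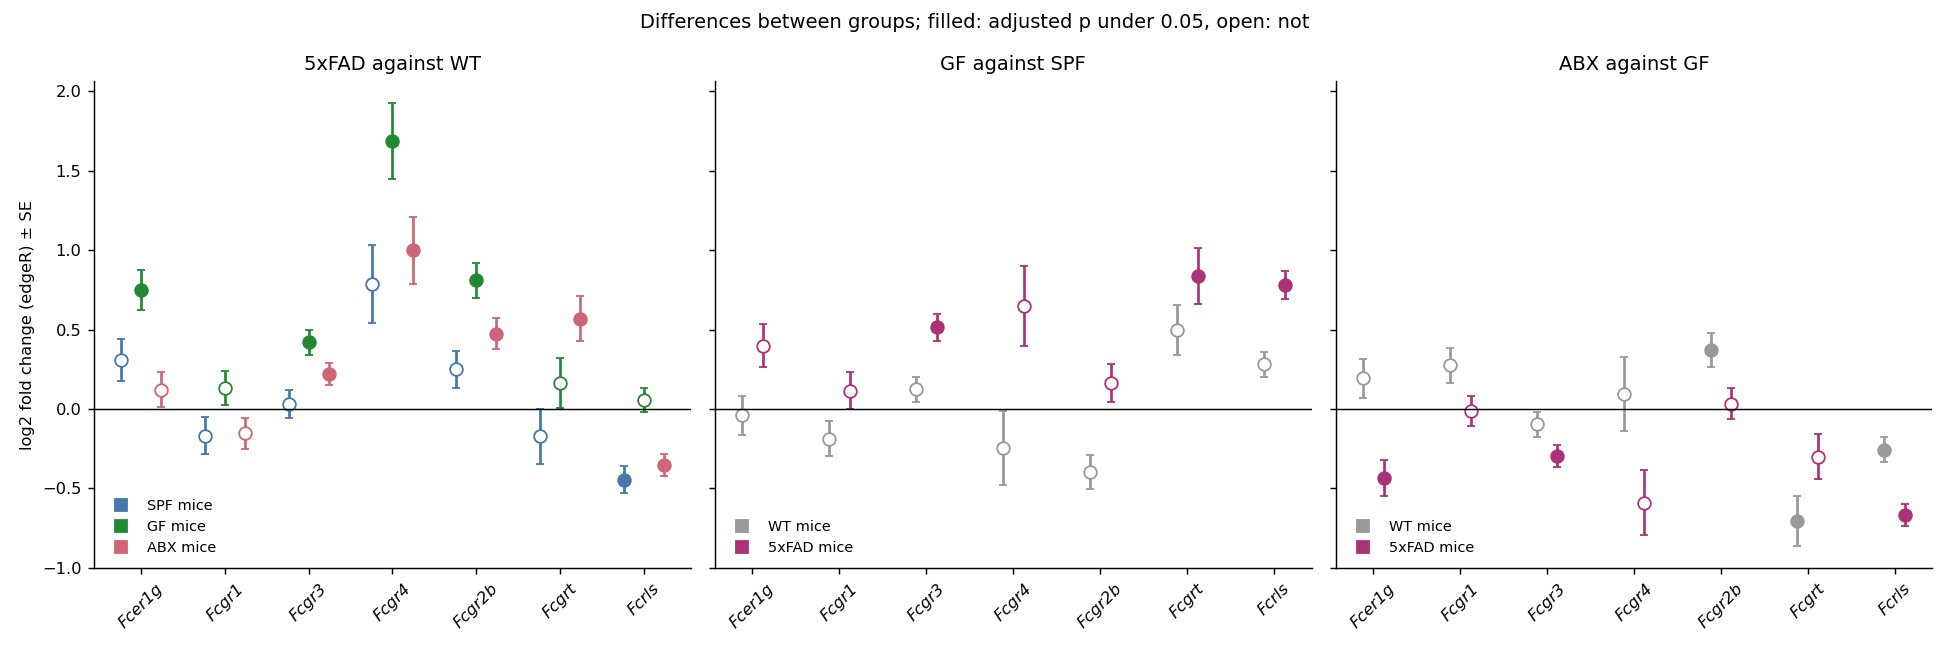
Log2 fold change ± SE of the 7 genes from edgeR for 5xFAD against WT mice under each condition, GF against SPF mice and ABX against GF mice, with filled symbols for an adjusted p under 0.05. In the left panel Fcgr4 in GF mice stands highest at 1.68 and Fcrls in SPF mice lowest at -0.44.

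The effect of housing was then compared within each genotype. Against SPF 5xFAD mice, GF 5xFAD mice had more *Fcrls* (log2 fold change 0.78 ± 0.09 SE, edgeR adjusted p = 1.02e-05), more *Fcgrt* (0.83 ± 0.18, adjusted p = 0.00346) and more *Fcgr3* (0.51 ± 0.09, adjusted p = 0.00117). For these 3 genes the 5 GF mice lay above all 3 SPF mice. Thus 3 of 7 members passed, all higher, where 12.8% of all genes passed and 6.97% were higher. *Fcer1g* missed the threshold (0.40 ± 0.14 SE, edgeR adjusted p = 0.0502), as did *Fcgr4* (0.65 ± 0.25 SE, adjusted p = 0.0875). Without mouse FAD_GF_201 both passed, with edgeR adjusted p of 0.0190 and 0.0328, and 5 of the 7 genes were then called, where 14.3% of all genes were. Over all alternatives *Fcer1g* passed in 10 of 36, with adjusted p from 0.00470 to 0.197. The SPF 5xFAD and GF 5xFAD libraries belong to different numbering styles and sources of mice, which cannot be told apart from housing here. Neutrophil, astrocyte and endothelial markers were lower in GF than in SPF 5xFAD mice, each without overlap. The astrocyte sum was largely *Slc1a3*, and *Pecam1* was the largest of the endothelial markers. The part of these cell types in these differences was not tested.

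The mean levels of ABX 5xFAD mice stood between those of the other 5xFAD groups for *Fcgr1*, *Fcgr3*, *Fcgr4*, *Fcgrt* and *Fcrls*. Against SPF 5xFAD mice 0 of 7 genes passed in edgeR, where 0% of all genes passed. At an unadjusted p under 0.05 there were 2, *Fcgr3* and *Fcgrt*, where 7.09% of all genes lay under it, and neither DESeq2 nor voomWithQualityWeights called any of the 7, where they called 0.0533% and 0.876% of all genes. Leaving out mouse FAD_ABX_1151 gave 1 call, *Fcgrt*, with a log2 fold change of 0.63 (edgeR adjusted p = 0.0436), where 0.384% of all genes were called. Against GF 5xFAD mice ABX 5xFAD mice had less *Fcrls* (-0.66 ± 0.07 SE, edgeR adjusted p = 2.86e-06), less *Fcgr3* (-0.30 ± 0.07, adjusted p = 0.00826) and less *Fcer1g* (-0.43 ± 0.11, adjusted p = 0.0123). For *Fcrls* and *Fcgr3* all 6 ABX mice lay below all 5 GF mice. These 3 of 7 were all lower, where 10.6% of all genes passed and 6.07% were lower. Without FAD_ABX_1151 the comparison lies within 1 numbering style, and the 3 values were -0.63, -0.23 and -0.39 (edgeR adjusted p = 2.08e-05, 0.0251 and 0.0430). When only these groups were fitted, 1.89% of all genes passed, and of the members *Fcrls* alone did. *Fcgr3* was then -0.26 (edgeR adjusted p = 0.113) and *Fcer1g* -0.40 (edgeR adjusted p = 0.0991). Without mouse FAD_ABX_1482, *Fcgr4* (-0.72, adjusted p = 0.0154) and *Fcgrt* (-0.41, adjusted p = 0.0414) also passed, and *Fcgr4* did so without FAD_ABX_1455 or FAD_GF_201 (adjusted p = 0.0396 and 0.0173). The shares of all genes in these fits are not given here, so the added calls are not read as a trait of the members. DESeq2 and voomWithQualityWeights also called *Fcgr4* (adjusted p = 0.0389 and 0.0213), where they called 15.5% and 9.88% of all genes. Astrocyte markers, largely *Slc1a3*, summed to 212 to 299 CPM in ABX against 155 to 189 CPM in GF 5xFAD mice. Markers of border-associated macrophages summed to 36.5 to 269 CPM in ABX against 16.6 to 30.7 CPM in SPF 5xFAD mice. Neither pair of ranges overlapped, and the part of these cells in the differences of ABX 5xFAD mice was not tested.

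In WT mice the same comparison of ABX with GF housing gave 3 calls of 7, where 6.88% of all genes passed, 2.4% higher and 4.48% lower. *Fcgr2b* was higher in ABX WT mice (0.37 ± 0.11 SE, edgeR adjusted p = 0.0355), and *Fcgrt* (-0.71 ± 0.16, adjusted p = 0.00756) and *Fcrls* (-0.26 ± 0.08, adjusted p = 0.0413) were lower. The *Fcgrt* groups did not overlap, at 98.9 to 162 CPM in ABX WT and 246, 192, 170 and 212 CPM in GF WT mice. The markers of border-associated macrophages were likewise higher in GF WT than in ABX WT mice, without overlap, and their part in the *Fcgrt* difference was not tested. The *Fcgrt* call held in all 36 alternatives, whereas *Fcgr2b* was lost in 8 and *Fcrls* in 18 of them. The weakest values came without mouse WT_GF_199 for *Fcgr2b* (0.31, adjusted p = 0.100) and without WT_GF_230 for *Fcrls* (-0.19, adjusted p = 0.181).

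GF against SPF WT mice gave 0 of 7 calls in edgeR, where 1.62% of all genes passed. At an unadjusted p under 0.05, where 16.6% of all genes lay, there were 3, *Fcgr2b* (-0.39 ± 0.11 SE, adjusted p = 0.0566), *Fcgrt* (0.50 ± 0.16, adjusted p = 0.0964) and *Fcrls* (0.28 ± 0.08, adjusted p = 0.0575). The markers of border-associated macrophages were higher in GF WT than in SPF WT mice too, without overlap, and their part in the *Fcgrt* value was not tested. In each of these 3 genes the groups did not overlap, without a share over all genes to set this against. DESeq2 and voomWithQualityWeights called all 3, where they called 6.14% and 10.7% of all genes. For ABX against SPF WT mice 0 of 7 genes passed, where 0% of all genes passed, and 0 did so at an unadjusted p under 0.05, in DESeq2 or in voomWithQualityWeights, where 4.49%, 0.0131% and 0% of all genes did. GF WT libraries are of another numbering style than SPF WT and ABX WT libraries, so that style and facility cannot be told apart from housing in both GF comparisons of WT mice. These comparisons share groups with those above and are not independent of them.

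Whether the genotype effect itself differed between conditions was tested by the difference of the 5xFAD effects. Between ABX and GF mice it passed for 2 of 7 genes, both lower, where 1.76% of all genes passed and 0.843% were lower. For *Fcer1g* the effect in ABX minus that in GF mice was -0.63 ± 0.17 (SE) log2 units (edgeR adjusted p = 0.0480), with 0.12 in ABX and 0.75 in GF mice. For *Fcrls* it was -0.41 ± 0.10 (SE, edgeR adjusted p = 0.0418), with a fall of -0.35 in ABX mice and 0.06, which did not pass, in GF mice. Both lay near the threshold, and the calls were lost in 25 and 20 of 36 alternatives, most of which left out 1 mouse. Without mouse WT_GF_199 the adjusted p was 0.115 for *Fcer1g*, and without WT_GF_229 it was 0.0891 for *Fcrls*. Between GF and SPF mice 0 of 7 passed in edgeR, where 0% of all genes passed. At an unadjusted p under 0.05 there were 5 of these, where 8.52% of all genes lay under it. DESeq2 called 1, *Fcrls*, and voomWithQualityWeights called 3, *Fcgr2b*, *Fcgr3* and *Fcrls*, where they called 0.163% and 0.758% of all genes. Between ABX and SPF mice 0 of 7 passed, again where 0% of all genes passed, with 1 at an unadjusted p under 0.05, *Fcgrt*, where 6.75% of all genes lay, and 0 in DESeq2 and voomWithQualityWeights, which called 0.00654% and 0.0915% of all genes. That members passed in GF or ABX mice and not in SPF mice, *Fcer1g* included, is thus not shown by edgeR to be a difference from SPF mice.

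The balance between short and long genes moved with these results. In each library the median log2 CPM of 214 genes shorter than 1000 bases was set against that of 3664 genes longer than 5000 bases. The difference was -0.743 to -0.333 in GF 5xFAD mice and -1.43 to -0.928 in GF WT mice, without overlap, and -1.21 to -0.859 in SPF 5xFAD mice. ABX 5xFAD mice spread from -1.46 in FAD_ABX_1151 to -0.447 in FAD_ABX_1482. Over the 28 mice Pearson's r of the log2 level with this balance was 0.89 for *Fcer1g*, a gene of 874 bases, 0.87 for *Fcgr3*, 0.71 for *Fcgr4*, 0.60 for *Fcgr2b*, 0.54 for *Fcgrt*, 0.36 for *Fcgr1* and 0.30 for *Fcrls*. With the group means taken out it was 0.84, 0.73, 0.54, 0.73, 0.24, 0.72 and -0.06 in the same order. The points share libraries, groups and depth, and no test was made.

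**Figure D4:**
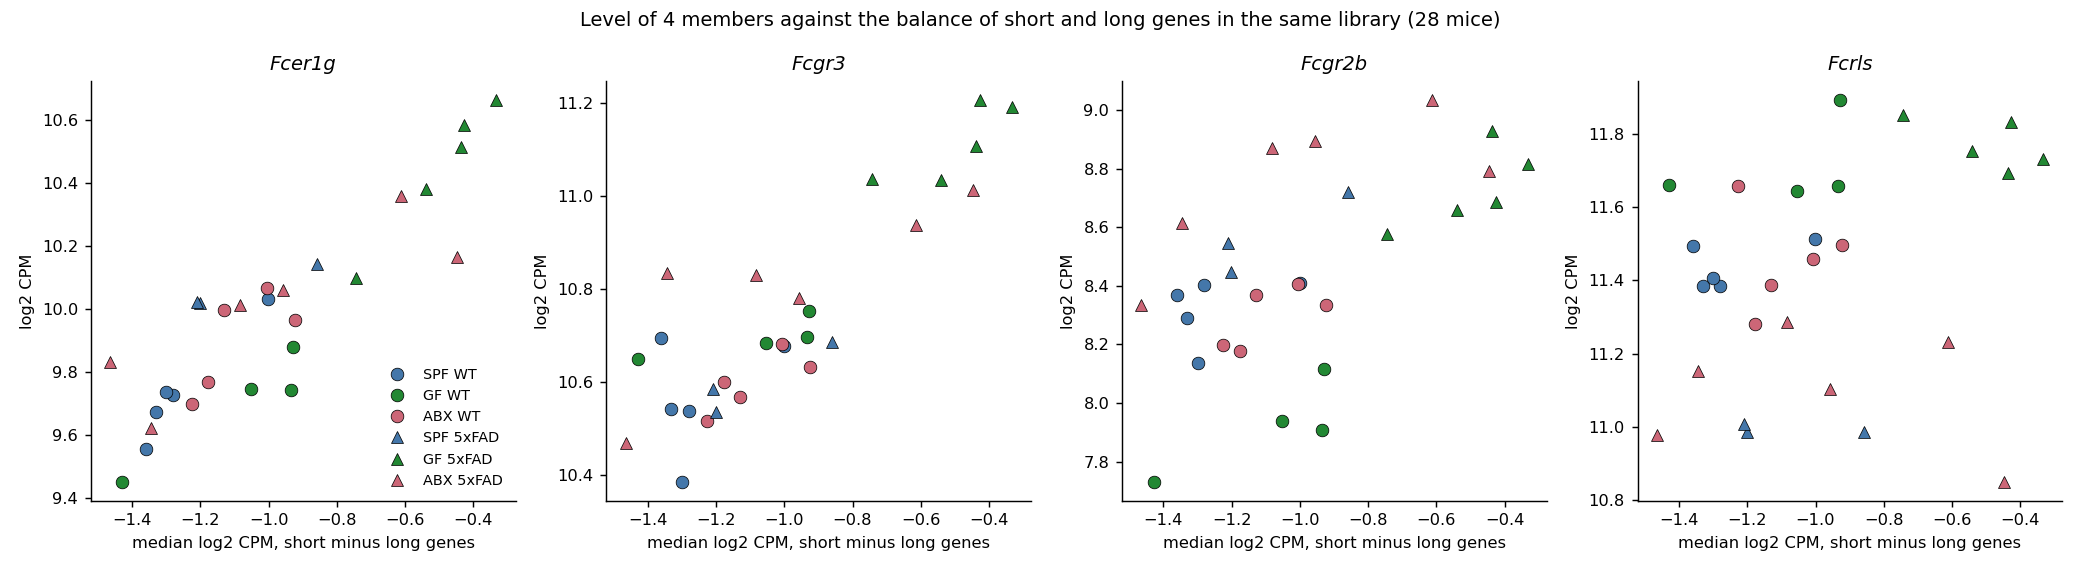
Log2 CPM of Fcer1g, Fcgr3, Fcgr2b and Fcrls against the median log2 CPM of short minus long genes in the same library, 1 symbol per mouse. Fcer1g and Fcgr3 climb with the balance and the GF 5xFAD mice lie at the right end, from -0.743 to -0.333, whereas Fcrls does not follow it (r = 0.30).

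With offsets that take out each library's trend with gene length, an alternative chosen after seeing the data, the same 4 genes passed in GF mice. Of all genes 14.8% passed there. The log2 fold changes were then 0.57 for *Fcer1g*, 0.33 for *Fcgr3*, 1.52 for *Fcgr4* and 0.88 for *Fcgr2b*, with edgeR adjusted p from 5.94e-06 to 0.000389. In SPF mice *Fcgr4* passed beside *Fcrls* with the offsets (log2 fold change 0.81, edgeR adjusted p = 0.0264), where 5.05% of all genes passed. The difference of the 5xFAD effect between ABX and GF mice was -0.44 for *Fcer1g* (edgeR adjusted p = 0.0490) and -0.36 for *Fcrls* (edgeR adjusted p = 0.0625). For this difference 1.42% of all genes passed. Whether the length balance reflects the cells or the preparation of the libraries was not tested.

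Genes with a pattern most like a member were found by Pearson's r of log2 CPM over the 28 mice among 8930 genes. *Fcer1g* was most like *Uqcr10* (r = 0.97), *Ssr4* (0.96) and *Myeov2* (0.96), and *Fcgr3* like *Atp6v1g1* (0.96), *Med28* (0.95) and *Tmem9b* (0.94). *Fcgr4* was most like *Hcst* (0.95), *Slamf9* (0.93) and *Tspo* (0.92), and *Fcgrt* like *Coro1b* (0.90), *Gpaa1* (0.89) and *Uqcrc1* (0.88). For *Fcgr2b* the nearest were *Mfsd1* (0.86), *Tsc22d1* (0.85) and *B2m* (0.84), for *Fcgr1* *Sar1b* (0.77), *Polr2h* (0.76) and *Mcts1* (0.76), and for *Fcrls* *Slbp* (0.77), *Ino80e* (0.76) and *Bzw2* (0.75). After the group means were taken out, r fell to 0.33, 0.04 and 0.14 for the 3 genes nearest to *Fcrls* and stayed at 0.90 to 0.92 for those nearest to *Fcer1g*.

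Of 13 other Fc and Fc receptor-like genes 3 could be tested, *Trim21*, *Fcrl1* and *Fcrlb*, while *Fcer1a*, *Ms4a2*, *Fcmr*, *Fcamr* and *Pigr* had 0 reads in all 28 libraries. *Fcrl1*, another Fc receptor-like gene, fell in 5xFAD mice under every condition, by 1.29 ± 0.15 (SE) on the log2 scale under SPF, 0.66 ± 0.13 under GF and 1.21 ± 0.12 under ABX conditions (edgeR adjusted p = 8.16e-07, 0.000652 and 1.93e-08). It was higher in GF than in SPF 5xFAD mice (0.81 ± 0.15 SE, edgeR adjusted p = 0.00178), as *Fcrls* was. The medians of the 3 tested genes in the 5xFAD comparisons were -0.17, 0.10 and 0.04 log2 units, against -0.03, -0.03 and -0.01 over all genes.

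Among the ligands and the FcRn partner 5 of 13 genes could be tested. *B2m*, whose product pairs with FcRn and with MHC class I, was higher in 5xFAD mice by 1.00 ± 0.16 (SE) log2 units under SPF, 1.61 ± 0.16 under GF and 0.54 ± 0.14 under ABX conditions (edgeR adjusted p = 7.65e-05, 7.69e-09 and 0.00655). The *B2m* effect was smaller in ABX than in GF mice by 1.07 ± 0.20 log2 units (SE, adjusted p = 0.00762). It thus passed in all 3 conditions, where *Fcgrt* passed in ABX mice. *Ighg1*, *Ighg2c*, *Igha*, *Iglc1* and *Iglc2* had 0 reads in all libraries, and *Igkc* and *Ighg3* at most 1. Of the 5 tested genes *Ighg2b* and *Alb* had 0 reads in 11 and 1 libraries, so that neither a count nor a median is given for this list.

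Of the receptors that share *Fcer1g* and the other ITAM adaptors 5 of 11 genes were tested. *Tyrobp*, which encodes the adaptor DAP12, rose by 1.13 ± 0.15 (SE) log2 units in SPF, 1.83 ± 0.15 in GF and 0.95 ± 0.13 in ABX 5xFAD mice against WT mice (edgeR adjusted p = 3.33e-06, 1.29e-10 and 2.88e-06). Each of these values was larger than that of *Fcer1g* under the same condition. *Clec4n*, *Clec4b1*, *Cd300ld* and *Lilra5* make up the rest of the tested genes. *Clec4n*, *Clec4b1* and *Cd300ld* had 0 reads in 13, 10 and 2 libraries, and *Clec4n* in every SPF WT library. Whether a gene this low was kept for testing depended on the group where it was high, so that neither a count nor a median is given for the list.

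The 19 kinases and adaptors downstream of the ITAM were all tested. Of all genes 3.73% were higher and 0.837% lower in SPF, 9.43% and 6.20% in GF, and 9.45% and 4.98% in ABX 5xFAD mice, which is the background for this list and those that follow. *Vav3* averaged 0.416 CPM with 0 reads in 17 libraries and was left out of the counts and medians after its values were seen. In 5xFAD against WT mice 2 of the other 18 were higher and 1 lower in SPF, 3 higher and 6 lower in GF, and 3 higher and 2 lower in ABX mice, with medians of -0.12, -0.21 and -0.03 log2 units. The Src family kinase genes *Fgr* and *Fyn* were higher under every condition, *Fgr* by 2.10 ± 0.33 (SE), 2.20 ± 0.33 and 1.57 ± 0.29 log2 units and *Fyn* by 0.70 ± 0.17, 0.63 ± 0.16 and 0.49 ± 0.14 in SPF, GF and ABX mice, all with edgeR adjusted p of at most 0.0198. The adaptor gene *Lat2* passed in GF (0.81 ± 0.11 SE, adjusted p = 3.27e-06) and ABX mice (0.59 ± 0.10, adjusted p = 8.16e-05) and missed in SPF mice (0.39 ± 0.12, adjusted p = 0.0503).

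All 11 genes of inhibitory signalling downstream of the ITIM were tested. In SPF mice 1 was higher and 2 lower, in GF mice 3 were lower, and in ABX mice 3 were higher and 1 lower, against the shares just given for all genes, with medians of -0.01, -0.16 and 0.04 log2 units. The higher gene in SPF mice and 1 of the 3 in ABX mice was *Dok2*, which averaged 3.40 CPM with 0 reads in 1 library, so that these calls rest on low counts. *Inpp5d*, which encodes the phosphatase SHIP1, fell in GF 5xFAD mice (-0.30 ± 0.09 SE, edgeR adjusted p = 0.0252) and rose in ABX 5xFAD mice (0.25 ± 0.08, adjusted p = 0.0367). The difference between these effects passed too (0.55 ± 0.12 log2 units SE, edgeR adjusted p = 0.0237). The adaptor gene *Dok3* fell under every condition, by 0.71 ± 0.17 (SE), 0.92 ± 0.15 and 0.41 ± 0.13 log2 units in SPF, GF and ABX mice (adjusted p = 0.00795, 4.16e-05 and 0.0367). *Ptpn22* fell in GF mice (-0.94 ± 0.33 SE, adjusted p = 0.0487).

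Of the 16 genes of the actin machinery of phagocytosis, 2 were higher and 0 lower in SPF, 7 higher and 0 lower in GF, and 3 higher and 2 lower in ABX 5xFAD mice. The same directions held 3.73%, 0.837%, 9.43%, 6.20%, 9.45% and 4.98% of all genes. The medians were -0.02, 0.25 and -0.01 log2 units. *Gsn*, which encodes the filament-severing gelsolin, rose by 1.65 ± 0.29 (SE), 2.11 ± 0.29 and 2.15 ± 0.26 log2 units in SPF, GF and ABX mice, and the myosin gene *Myo5a* by 1.96 ± 0.28, 1.83 ± 0.28 and 1.57 ± 0.25 (edgeR adjusted p of at most 0.000354). *Cfl1*, the gene of the actin-binding cofilin, passed in GF mice (0.74 ± 0.11 SE, edgeR adjusted p = 1.95e-05). Its effect was not shown to differ from that in SPF (difference 0.68 ± 0.17 SE, adjusted p = 0.231) or ABX mice (ABX minus GF -0.47 ± 0.15 SE, adjusted p = 0.104).

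The sequence before the start sites was searched for motifs of factors of myeloid cells in 250 bases of the RefSeq promoter windows on GRCm38.p6, on both strands. The box of PU.1, the master regulator of myeloid cells, with the letters GAGGAA, was found in *Fcgr1*, *Fcgr3*, *Fcgr4* and *Fcrls*, 4 of the 7 genes, and in 23.3% of all 32851 windows. The stretches of the 3 activating receptors are printed because genes with the same letters at their start differed in these mice, *Fcgr4* being the member with the largest fold change between genotypes and *Fcgr1* one that passed in none of the 12 comparisons in edgeR. The capitals mark the box, read on the opposite strand, and the stretches lie at chr1:171059404-171059449 on the minus strand for *Fcgr3*, chr1:171018864-171018919 on the plus strand for *Fcgr4* and chr3:96294009-96294064 on the minus strand for *Fcgr1*.
*Fcgr3*: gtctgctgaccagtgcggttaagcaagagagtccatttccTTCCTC
*Fcgr4*: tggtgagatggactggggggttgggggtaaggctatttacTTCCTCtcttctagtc
*Fcgr1*: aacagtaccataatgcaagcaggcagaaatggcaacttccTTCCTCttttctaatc
The boxes start 6, 22 and 55 bases before the start that RefSeq gives. *Fcgr3* has 2 such windows, and in the other one the distance is 15 bases. Both lie inside the gene span of GENCODE M21, downstream of the start given there. The ETS-IRF composite element, which can overlap the PU.1 box, occurred in *Fcgr2b* (2.30% of all windows) and the GAS letters TTCNNNGAA, bound by STAT factors, in *Fcgr1* (7.02%). The AP-1 letters TGANTCA (6.75%) and the E-box CACGTG (6.02%) were not found in these windows of the 7 genes. A match is a description of letters and not a site of binding.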

How the data were processed

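Libraries were made with SMARTer v4 and Nextera XT from sorted cells and sequenced as single reads of 50 bases. Alignment by the authors used STAR 2.7.2 and GRCm38, and counting used featureCounts 1.6.2 and GENCODE M21 (the versions are those in the submitters' processing notes). The table deposited holds raw read counts for every gene, beside each gene's summed exon length in bases from the authors' counting. The submitters' notes name a human build, but the coordinates in the table match GENCODE M21 mouse genes for all 7 members.

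Spike-in entries, 92 in number and with at most 12 reads in a library, were left out. Counts were tested in R 4.3.3 with edgeR 4.0.16: filterByExpr (minimum count 10, total 15), TMM scaling, 1 term per group over 28 mice, and the quasi-likelihood test with Benjamini-Hochberg adjustment over 15298 genes at a threshold of 0.05. CPM of members were TMM-scaled and those of markers refer to library totals. Overlap of group ranges is a description of members and markers, with no share over all genes beside it. At 131 or more reads per member and library, the spread between mice set the precision. No replicates agreed within sampling noise (lowest chi-square per degree of freedom 6.39). The procedure was tested on simulated data.

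Members and gene lists were chosen with earlier results of these data known. The text names all 7 members, up to 3 passing genes of each list with the largest change in GF 5xFAD against GF WT mice, the 3 genes most like each member (prior count of 2, average of at least 3 log2 CPM), and marker genes. The mouse named as highest in neutrophil markers, and list genes with no reads, were chosen after their values were seen. Alternatives were RLE factors, library size alone, no filter, DESeq2 1.42.0, voomWithQualityWeights of limma 3.58.1, a fit of only the groups compared, 26 mice without FAD_ABX_1151 and FAD_ABX_1482, leaving out each mouse in turn and, added after seeing the data, gene length offsets. Figures were drawn with matplotlib in Python.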

Additional observations from a re-analysis of the deposited data

Results flagged for a closer look

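In GF WT mice, *Fcrls* measured 3800 CPM in mouse WT_GF_230, far from the other 3 mice of the group at 3202, 3230 and 3237 CPM. This was 1 of 35 groups of 4 or more mice examined over the 7 genes, and chance alone marks about 1 in 20. Without this mouse the GF WT mice ended at 3237 CPM, below the lowest GF 5xFAD mouse at 3308 CPM, and the genotype difference of the GF mice was 0.11 log2 units (edgeR adjusted p = 0.416).

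For *Fcer1g* the 5xFAD effect differed between ABX and GF mice by -0.63 ± 0.17 (SE) log2 units (edgeR adjusted p = 0.0480), with effects of 0.12 in ABX and 0.75 in GF mice. For *Fcrls* it differed by -0.41 ± 0.10 log2 units (SE, edgeR adjusted p = 0.0418), with effects of -0.35 and 0.06. Both were marked because the test of the difference itself passed. Over the alternatives the adjusted p ranged from 0.0157 to 0.115 for *Fcer1g* and from 0.0123 to 0.139 for *Fcrls*.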

How the results depend on the processing

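In all, 84 values (7 genes in 12 comparisons) were recomputed under 36 alternatives. Of the 21 called values 0 changed sign and 14 passed under every alternative, while 12 of the uncalled values changed sign under at least 1. The count of members called in 5xFAD against WT mice under SPF conditions went from 1 to 2 with DESeq2, with only the groups compared, with 26 mice and with gene length offsets, and to 3 with voomWithQualityWeights. Of all genes 4.57% passed in the main fit and 6.49%, 9.71%, 5.43%, 5.05% and 14.1% in these fits, in the same order. In GF against SPF 5xFAD mice the count of members went from 3 to 5 with DESeq2 and voomWithQualityWeights and to 4 with 26 mice, and in ABX against GF 5xFAD mice from 3 to 1 with only the groups compared (and to 4 with DESeq2 and voomWithQualityWeights). For GF against SPF 12.8% of all genes passed in the main fit, and 22.6%, 25.3% and 16.1% in these fits. For ABX against GF it was 10.6%, then 1.89%, 15.5% and 9.88%. In GF against SPF WT mice the count of members went from 0 to 1 with RLE factors or library size alone and to 3 with DESeq2, voomWithQualityWeights, only the groups compared or 26 mice, and in ABX against GF WT mice from 3 to 1 with no low-count filter, to 2 with library size alone, only the groups compared or gene length offsets and to 4 with voomWithQualityWeights. For GF against SPF 1.62% of all genes passed in the main fit, and 1.74%, 1.53%, 6.14%, 10.7%, 9.6% and 4.31% in these fits. For ABX against GF it was 6.88%, then 2.72%, 6.45%, 9.62%, 7.96% and 13.2% in the order named. For the difference of the 5xFAD effect, GF against SPF went from 0 to 1 with DESeq2 and 3 with voomWithQualityWeights, and ABX against GF from 2 to 0 with library size alone, no filter, only the groups compared or 26 mice, and to 1 with gene length offsets. Of all genes 0%, 0.163% and 0.758% passed for the former in the main fit and these fits. For the latter it was 1.76%, then 1.82%, 0.789%, 0.47%, 2.34% and 1.42%. The cause of these changes was not tested. Leaving out each mouse gave counts of 1 to 2 for 5xFAD against WT in SPF mice, 3 to 5 for GF against SPF and 0 to 1 for ABX against SPF in 5xFAD mice, 3 to 5 for ABX against GF 5xFAD, 0 to 3 for GF against SPF WT, 1 to 3 for ABX against GF WT, and 0 to 2 for the difference between ABX and GF. The shares of all genes moved too. For GF against SPF WT, for example, 0.608% passed without WT_SPF_912 and 1.96% without WT_ABX_911, against 1.62% with every mouse. For ABX against GF WT 3.29% passed without WT_ABX_911, against 6.88%. Library size alone moved the median of all genes by -0.125 log2 units in 5xFAD against WT GF mice, and under it *Fcrls* there was -0.0688. None of the values that changed sign was called. They were, with library size alone, *Fcgr3* in SPF mice (-0.0149), *Fcgr1* for ABX against GF 5xFAD (0.0730) and *Fcgr1* for the difference ABX against SPF (-0.0124). With gene length offsets they were *Fcgr4* for ABX against SPF 5xFAD (-0.0115), *Fcgr1* (0.0503) and *Fcgr2b* (-0.0323) for ABX against GF 5xFAD, *Fcgr2b* for ABX against SPF WT (0.0301) and *Fcgr1* for the difference ABX against SPF (-0.0201). *Fcgr1* for ABX against GF 5xFAD was also 0.0196 with no filter, 0.0215 with only the groups compared and 0.00703 with 26 mice, and *Fcer1g* for GF against SPF WT was 0.0217 with voomWithQualityWeights. Over single mice left out, the ranges that crossed 0 were -0.0114 to 0.0771 for *Fcgr3* in 5xFAD against WT SPF mice, -0.12 to 0.0340 for *Fcer1g* and -0.0701 to 0.18 for *Fcgr4* in ABX against SPF 5xFAD, -0.0599 to 0.0504 for *Fcgr1* and -0.0247 to 0.12 for *Fcgr2b* in ABX against GF 5xFAD, -0.0981 to 0.0387 for *Fcer1g* in GF against SPF WT, -0.0679 to 0.0119 for *Fcgr2b*, -0.0142 to 0.0613 for *Fcgr3* and -0.0290 to 0.0728 for *Fcrls* in ABX against SPF WT, -0.0450 to 0.18 for *Fcgr4* in ABX against GF WT and -0.0499 to 0.12 for *Fcgr1* in the difference ABX against SPF. No paired analysis was possible because the groups share no replicate numbers. Every member had 131 or more reads in each library, and the groups held 3 to 6 mice.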

Other observations

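Among the members Pearson's r of log2 CPM over the 28 mice, which share libraries, depth and length balance, was highest between *Fcer1g* and *Fcgr4* (0.80), *Fcgr2b* and *Fcgr4* (0.77) and *Fcer1g* and *Fcgr3* (0.76). With the group means taken out it was 0.49, 0.37 and 0.51. *Fcgr1* followed *Fcgr2b* at 0.32 over all mice and 0.74 within groups, and *Fcrls* had between -0.30 and 0.40 with the other members over all mice. The log2 ratio of reads per kilobase of *Fcer1g* over the 3 activating receptors summed was -0.34 to 0.13 in SPF WT and 0.24 to 0.29 in SPF 5xFAD mice, which did not overlap. The genotypes overlapped in GF mice, at -0.36 to -0.06 in WT and -0.09 to 0.30 in 5xFAD mice, and in ABX mice, at -0.06 to 0.20 and -0.35 to 0.22. These values were not tested.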
